A study of Mus musculus with 12 samples.

Results

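The homologous recombination and DNA repair genes examined here are 43 genes of break signalling, recombination, crosslink repair, lesion bypass and end joining that act beside or downstream of the Fanconi anemia pathway. A gene was a member if its name stood on a list of repair genes, and its measured values were no part of this rule. The list itself was chosen with earlier results of these data known. Of the 43, 41 had a probe set annotated with that gene alone, and Xrcc2 and Fan1 were not analysed here. 40 were tested among 11906 genes of the array that passed a brightness filter, out of 18193 genes in all. The remaining member, Lig4, the ligase of end joining, was too dim to test.

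Bone marrow was taken without fractionation or culture from the tibia and femur of 12 mice. The RNA of each mouse, not pooled per the labels, was measured on 1 Affymetrix array. There were 3 double knockout mice lacking Fancc and Fancg, 3 Fancc-/- mice, 3 Fancg-/- mice and 3 wild type C57Bl/6 mice. Both deleted genes encode subunits of the Fanconi core complex. The labels give no age, sex, treatment or strain of the knockout mice, so a strain difference and the genotype cannot be told apart. All values are log2 signals, and a difference of 1 is a 2-fold change. Each probe set has its own affinity, so levels are compared across arrays and never between genes.

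The Fanconi pathway repairs links between DNA strands that block replication. Its core complex attaches ubiquitin to FANCD2 and FANCI, nucleases then cut beside the lesion, translesion polymerases copy past it, and homologous recombination restores the broken chromatid. Loss of the pathway causes Fanconi anemia, in which blood stem cells fail and cells are hypersensitive to crosslinking agents.

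The arrays were first checked against their labels. Fancg had 5.61, 5.83 and 5.78 in double knockout marrow, against 6.80, 6.86 and 6.86 in wild type marrow, and fell by 1.10 ± 0.16 (SE; limma adjusted p = 0.0105). In Fancg-/- marrow Fancg had 6.55, 6.00 and 6.64, below every wild type array, but the difference of -0.44 did not pass (limma adjusted p = 0.567). Fancc had 6.17, 6.04 and 5.96 in Fancc-/- marrow, against 6.05, 5.90 and 6.18 in wild type marrow, so this probe set does not check the Fancc label. Nor do its other probe sets, which were higher in Fancc-/- than in wild type marrow by 0.46 (limma unadjusted p = 0.0013) and 0.16. Where these probes lie relative to the deletions was not analysed here. The Y-linked gene Eif2s3y averaged 9.00 ± 0.30 in double knockout marrow and 3.04 ± 0.15 in wild type marrow (SD, n = 3 each). In Fancc-/- marrow it averaged 3.14 ± 0.18 (SD, n = 3), and it was the only gene called in the double knockout against Fancc-/-. So sex cannot be told apart from genotype in double knockout marrow against wild type or Fancc-/- marrow, the Slx4 and Polk differences included, nor in the interaction. In Fancg-/- marrow Eif2s3y averaged 7.50 ± 1.66 (SD, n = 3), and replicates 1 and 3 carried signal of both Eif2s3y and Xist. On replicates 1, 2 and 3 Eif2s3y had 7.64, 9.09 and 5.78, and Xist had 11.31, 7.34 and 10.75. Replicates 1 and 3 also had the higher Fancg values of this group, 6.55 and 6.64. Whether these arrays hold RNA of more than 1 mouse was not tested, so all Fancg-/- differences carry this limit. Eif2s3y was called in Fancg-/- against wild type marrow (4.46, limma adjusted p = 0.0201) and against Fancc-/- marrow (4.36, limma adjusted p = 0.028). Sex therefore cannot be told apart from genotype in those comparisons either. Double knockout arrays had Xist of 7.39, 7.06 and 5.99, below the Xist of Fancg-/- replicates 1 and 3. The double knockout against Fancg-/- marrow, its Polh, Eme1, Slx4 and mitosis gene differences included, thus has the same limit. Markers of the cell types also moved. Of 14 B cell markers tested, 11 fell in double knockout marrow and 11 fell in Fancc-/- marrow, with medians of -2.23 and -2.41. In Fancg-/- marrow 0 passed, with a median of -1.37, but the B cell marker mean was 6.81, 7.10 and 8.24 in Fancg-/- marrow, below the wild type range of 8.53 to 9.00. Of 11 erythroid markers tested, 2 rose in double knockout marrow and 8 rose in Fancc-/- marrow, with medians of 0.55 and 1.19. In Fancg-/- marrow 0 passed, with a median of 0.68, but the erythroid marker mean was 10.61 to 10.82 in Fancg-/- marrow, above the wild type range of 9.94 to 10.26. In whole marrow, fewer cells of a type and less RNA per cell cannot be told apart, and the part of cell composition in the results that follow was not tested.

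None of the 40 repair genes tested, each read on its brightest probe set, passed a limma adjusted p below 0.05 in any of the 7 comparisons. In double knockout against wild type marrow 0 of 40 were called, where 5.28% of all genes tested were called. In Fancc-/- against wild type marrow the background was 4.54%, and in Fancg-/- against wild type marrow it was 0.0504%. The double knockout against Fancc-/- had a background of 0.0084%, the double knockout against Fancg-/- one of 0%, and Fancg-/- against Fancc-/- one of 0.109%. The interaction asks how far the double knockout departs from the 2 single knockout differences added together, and its background was 0.0084%. At an unadjusted p below 0.05, 8 members passed in double knockout against wild type marrow (24.2% of all genes tested), 7 in Fancc-/- (19.8%) and 1 in Fancg-/- (7%). Between the knockouts, the counts were 10 for the double knockout against Fancc-/- (19.7%), 6 against Fancg-/- (14.4%) and 3 for Fancg-/- against Fancc-/- (9.04%). For the interaction 9 members passed (14.9%).

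The median of the repair genes stayed close to the wild type level, while single members differed in both directions. The median difference of the 40 members from wild type was -0.08 in double knockout marrow, beside -0.01 over all genes tested. It was 0.01 in Fancc-/- marrow, beside -0.01, and 0.02 in Fancg-/- marrow, beside 0.01. Without regard to sign, the members' median difference was 0.244 in double knockout marrow, beside 0.182 over all genes tested. It was 0.160 in Fancc-/- marrow, beside 0.173, and 0.095 in Fancg-/- marrow, beside 0.115. By array, the members' median was 0.03, -0.20 and -0.15 on double knockout replicates 1, 2 and 3, where wild type arrays ranged from -0.09 to 0.12. The precision allowed bounds for most members. The 95% interval of the difference from wild type lay within 1 log2 unit of 0 for 37 of 40 members in double knockout marrow (84.9% of all genes tested), for 35 in Fancc-/- marrow (87.5%) and for 38 in Fancg-/- marrow (93.3%). Between the knockouts it did so for 33 members in the double knockout against Fancc-/- (87.8%), for 36 against Fancg-/- (89.3%) and for 40 in Fancg-/- against Fancc-/- (92.5%). For the interaction it did so for 24 (75.3%). The median half-width of a member's interval was 0.387 log2, so smaller differences than that were mostly not detectable with 3 mice per group. These intervals are not adjusted for the number of genes tested, so larger differences could also fail to pass. Atm at -0.82 in double knockout against wild type marrow did not pass (limma adjusted p = 0.165).

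**Figure D1:**
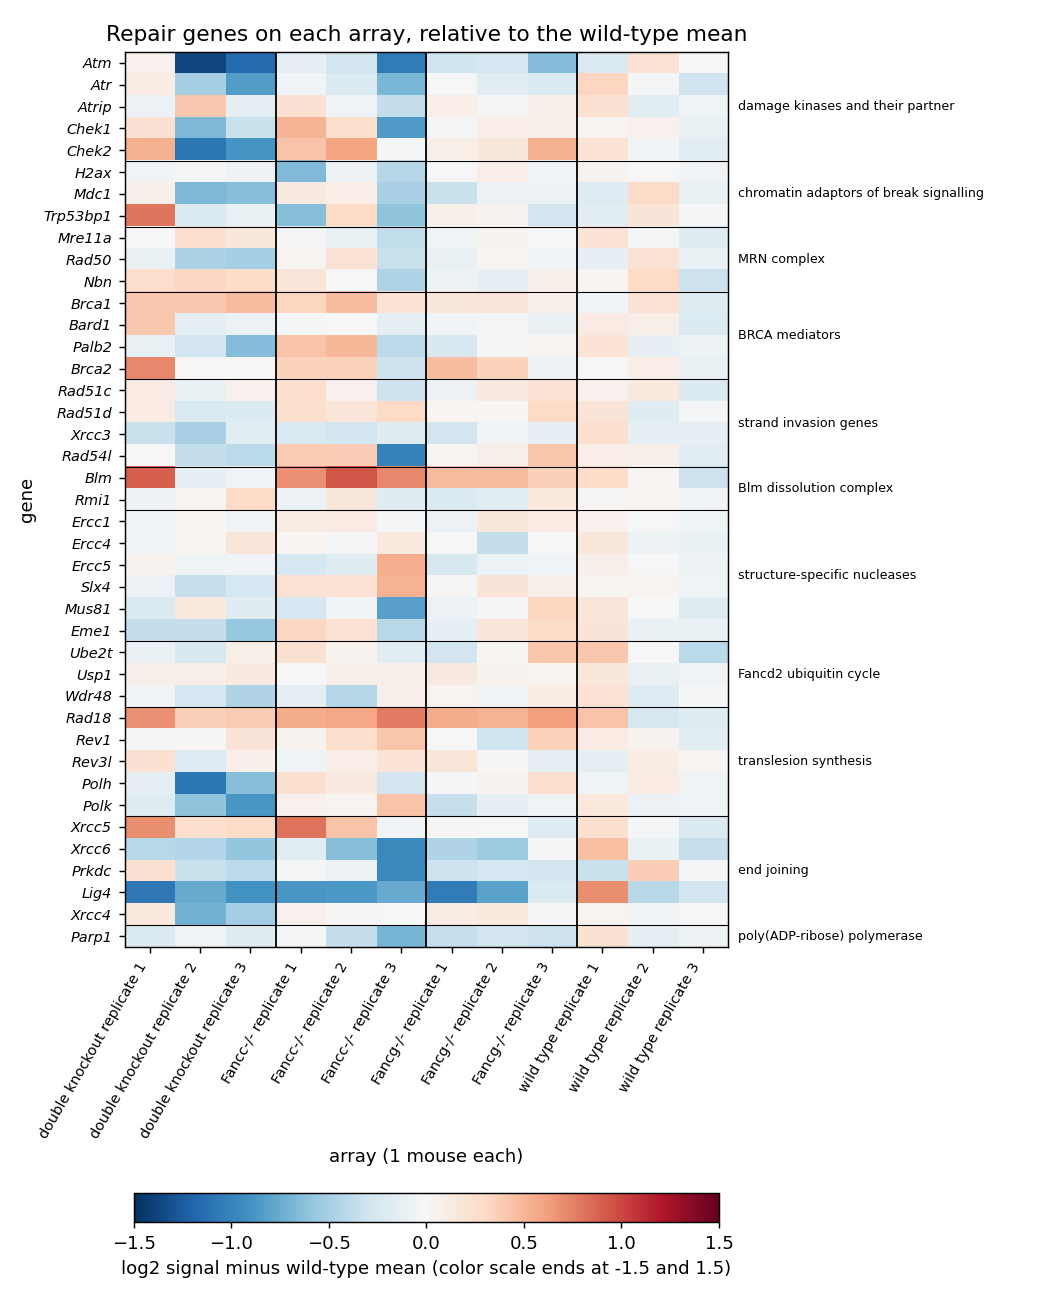
Heat map of the repair genes (rows, ordered by role) on each array (columns, by genotype), coloured by log2 signal minus the gene's wild type mean. Double knockout replicate 1 looks unlike double knockout replicates 2 and 3 among the damage kinases, and Fancc-/- replicate 3 has many low members.

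Damage kinases relay the presence of broken or stalled DNA. Atm, the kinase activated by double strand breaks, had 7.20, 5.76 and 5.98 in double knockout marrow, 6.99, 6.85 and 6.08 in Fancc-/-, 6.83, 6.88 and 6.48 in Fancg-/-, and 6.92, 7.34 and 7.13 in wild type marrow. Double knockout replicates 2 and 3 were the lowest of the 12 arrays, while replicate 1 lay inside the wild type range. The double knockout difference of -0.82 ± 0.34 SE did not pass (limma adjusted p = 0.165). Its second probe set differed by -0.65. Chek2, an effector kinase that ATM activates, had 7.33, 5.70 and 5.91 in double knockout marrow, 7.22, 7.38 and 6.77 in Fancc-/-, 6.88, 6.96 and 7.32 in Fancg-/-, and 7.00, 6.75 and 6.63 in wild type marrow. The same pair of double knockout arrays was the lowest, and replicate 1 was above every wild type array. Among the other members of this class, Atr, the kinase of stalled forks, averaged 6.33 in double knockout marrow, 6.43 in Fancc-/-, 6.62 in Fancg-/- and 6.74 in wild type marrow. Chek1, the effector of ATR, averaged 7.53 in double knockout marrow, 7.77 in Fancc-/-, 7.85 in Fancg-/- and 7.79 in wild type marrow. Atrip, the partner that brings ATR to single-stranded DNA, stayed between 5.06 and 5.82 on all arrays.

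The promoters of Chek2, Atm, Polh and Xrcc4 are shown because all were high on double knockout replicate 1 relative to replicates 2 and 3 and fell in double knockout marrow once replicate 1 was left out, and because they differ in the motifs they hold. These 4 were chosen after their values were seen. Polk did the same but has 2 promoters in the table and is not shown. Each sequence runs 5′ to 3′ on the gene's strand from 250 bases before the start to 50 bases after it (RefSeq, GRCm38.p6). Capitals mark matches on either strand to an E2F-type motif (TTTCCCGC, TTTCGCGC, TTTGCCGC or TTTGGCGC), to CCAAT, to the CHR element (TTTGAA or TTCGAA) or to TATAAA.
Chek2, chr5:110839733-110840032, plus strand: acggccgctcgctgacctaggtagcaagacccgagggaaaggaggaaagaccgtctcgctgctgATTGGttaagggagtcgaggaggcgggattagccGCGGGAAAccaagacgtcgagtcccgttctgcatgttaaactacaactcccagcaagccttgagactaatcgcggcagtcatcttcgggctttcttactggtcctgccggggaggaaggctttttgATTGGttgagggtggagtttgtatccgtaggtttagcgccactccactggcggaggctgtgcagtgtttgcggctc
Atm, chr9:53536622-53536921, minus strand: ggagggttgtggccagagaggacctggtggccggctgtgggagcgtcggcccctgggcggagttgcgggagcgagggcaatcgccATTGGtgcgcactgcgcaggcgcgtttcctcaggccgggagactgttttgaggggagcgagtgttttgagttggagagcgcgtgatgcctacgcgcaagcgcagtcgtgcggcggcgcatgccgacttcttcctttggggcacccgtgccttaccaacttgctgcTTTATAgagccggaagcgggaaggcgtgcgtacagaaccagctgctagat
Polh, chr17:46202592-46202891, minus strand: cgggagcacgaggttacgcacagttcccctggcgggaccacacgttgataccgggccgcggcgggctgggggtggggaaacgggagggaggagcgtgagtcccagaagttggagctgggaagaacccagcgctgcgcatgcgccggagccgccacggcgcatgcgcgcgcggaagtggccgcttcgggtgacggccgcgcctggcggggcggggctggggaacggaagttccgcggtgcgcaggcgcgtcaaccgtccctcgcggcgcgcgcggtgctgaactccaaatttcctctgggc
Xrcc4, chr13:90089559-90089858, minus strand: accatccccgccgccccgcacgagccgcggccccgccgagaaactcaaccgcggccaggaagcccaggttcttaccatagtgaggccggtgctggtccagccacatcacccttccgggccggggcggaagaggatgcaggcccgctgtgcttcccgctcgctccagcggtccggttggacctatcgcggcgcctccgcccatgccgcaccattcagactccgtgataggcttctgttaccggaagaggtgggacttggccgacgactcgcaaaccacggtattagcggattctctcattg
Chek2 holds 1 E2F-type match and 2 CCAAT matches, Atm holds 1 CCAAT and 1 TATAAA match, and the Polh and Xrcc4 windows hold none of these letters. No matches in these 4 windows overlap. Of the 43 members, 35 had a promoter in the table, with 41 promoters in all. The E2F-type letters stood in 8 of the 41 (19.5%), of 7 genes, beside 2.26% of all 32851 promoters of the same length and 3.91% of the 12296 promoters of tested genes. The 7 genes were Bard1, Brca2, Chek2, Mdc1, Rad51c, Rmi1 and Xrcc6. CCAAT stood in 46.3% of the members' promoters, beside 37.4% of all promoters and 37.3% of those of tested genes. The CHR letters stood in 9.76%, beside 19.2% of all and 14.1% of tested genes' promoters. TATAAA stood in 12.2%, which is below the 13.6% of all promoters and above the 7.72% of tested genes' promoters. The members' promoters had a median GC content of 59.7%, beside 60.3% for tested genes and 52.7% for all. A match to letters is a description and not a site of binding.

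Chromatin adaptors mark the surroundings of a break. H2ax, the histone variant phosphorylated there, had 11.19, 11.22 and 11.16 in double knockout marrow, 10.58, 11.15 and 10.82 in Fancc-/-, 11.25, 11.34 and 11.18 in Fancg-/-, and 11.30, 11.24 and 11.18 in wild type marrow. All 3 Fancc-/- arrays were below all wild type arrays, and the difference of -0.39 ± 0.12 SE did not pass (limma adjusted p = 0.0958). Fancg-/- differed from Fancc-/- by 0.41 (limma adjusted p = 0.348). Mdc1, which binds the phosphorylated histone, averaged 6.68 in double knockout marrow, 7.01 in Fancc-/-, 6.92 in Fancg-/- and 7.09 in wild type marrow. Trp53bp1, which favours end joining at breaks, averaged 8.35 in double knockout marrow, 7.86 in Fancc-/-, 8.12 in Fancg-/- and 8.18 in wild type marrow. Its values spread from 7.54 to 8.99, with the highest on double knockout replicate 1.

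The MRN complex senses and trims broken ends. Its nuclease Mre11a averaged 7.43 in double knockout marrow, 7.13 in Fancc-/-, 7.29 in Fancg-/- and 7.29 in wild type marrow. Rad50, its structural arm, averaged 7.84 in double knockout marrow, 8.18 in Fancc-/-, 8.16 in Fancg-/- and 8.20 in wild type marrow. Nbn, its link to ATM, averaged 7.76 in double knockout marrow, 7.39 in Fancc-/-, 7.44 in Fancg-/- and 7.48 in wild type marrow. None of these 3 passed the test in any comparison.

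The BRCA mediators prepare single-stranded DNA for homologous recombination. Brca1, which starts this step and also promotes resection, had 8.54, 8.54 and 8.60 in double knockout marrow, 8.46, 8.60 and 8.34 in Fancc-/-, 8.31, 8.32 and 8.21 in Fancg-/-, and 8.10, 8.35 and 7.95 in wild type marrow. All 3 double knockout arrays were above all wild type arrays. The difference of 0.43 ± 0.13 SE missed the threshold (limma adjusted p = 0.0675), and it was the smallest adjusted p of any member in that comparison. The other probe sets of Brca1 differed by 0.64 (limma unadjusted p = 0.000479), 0.51 and 0.04. Bard1, the partner of BRCA1, stayed between 4.91 and 5.52. Palb2, which joins BRCA1 to BRCA2, averaged 5.19 in double knockout marrow, 5.72 in Fancc-/-, 5.47 in Fancg-/- and 5.54 in wild type marrow. Brca2, which acts after BRCA1 in recombination, averaged 7.43 in double knockout marrow, 7.32 in Fancc-/-, 7.43 in Fancg-/- and 7.19 in wild type marrow.

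Rad51c, Rad51d, Xrcc3 and Rad54l act around strand invasion, the step in which a broken chromatid pairs with its sister. Rad51c stayed between 6.06 and 6.61 and Rad51d between 5.89 and 6.42. Xrcc3 averaged 5.34 in double knockout marrow, 5.43 in Fancc-/-, 5.51 in Fancg-/- and 5.66 in wild type marrow, and all double knockout and all Fancc-/- arrays were below all wild type arrays. Rad54l, a motor protein that moves along DNA, averaged 8.13 in double knockout marrow, 8.30 in Fancc-/-, 8.56 in Fancg-/- and 8.38 in wild type marrow. Its lowest value, 7.37, was on Fancc-/- replicate 3, where the other two Fancc-/- arrays had 8.77 and 8.75.

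Blm is the helicase that, with its partner Rmi1, takes joined recombination intermediates apart. It had 8.69, 7.67 and 7.75 in double knockout marrow, 8.47, 8.72 and 8.51 in Fancc-/-, 8.27, 8.26 and 8.14 in Fancg-/-, and 8.07, 7.82 and 7.48 in wild type marrow. Every Fancc-/- and every Fancg-/- array was above every wild type array, with differences of 0.78 ± 0.24 SE (limma adjusted p = 0.0932) and 0.43 (limma adjusted p = 0.812). In the double knockout replicates 2 and 3 lay within the wild type range and replicate 1 was above it. The interaction estimate for Blm was -0.97 (limma adjusted p = 0.234). Rmi1 stayed between 7.42 and 7.93.

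Structure-specific nucleases cut the crosslink loose or resolve joined chromatids. Slx4, the scaffold that gathers these nucleases, had 6.33, 6.08 and 6.15 in double knockout marrow, 6.63, 6.63 and 6.93 in Fancc-/-, 6.43, 6.61 and 6.50 in Fancg-/-, and 6.44, 6.46 and 6.35 in wild type marrow. The double knockout was below each of the other 3 groups with no overlap. Against Fancc-/- it differed by -0.55 ± 0.12 SE (limma adjusted p = 0.0759), and against Fancg-/- by -0.33 (limma adjusted p = 0.25). Eme1, the partner of MUS81, had 6.19, 6.18 and 5.97 in double knockout marrow, 6.86, 6.77 and 6.13 in Fancc-/-, 6.42, 6.72 and 6.82 in Fancg-/-, and 6.73, 6.45 and 6.45 in wild type marrow. The double knockout arrays were below all Fancg-/- and all wild type arrays, and the difference from Fancg-/- was -0.54 (limma adjusted p = 0.238). Mus81, the catalytic subunit, had 6.46, 6.81 and 6.49 in double knockout marrow, 6.42, 6.62 and 5.86 in Fancc-/-, 6.59, 6.69 and 7.00 in Fancg-/-, and 6.86, 6.67 and 6.49 in wild type marrow. Its groups overlapped throughout, and Fancg-/- against Fancc-/- gave 0.46 (limma adjusted p = 0.532). Ercc1 and Ercc4 form the nuclease that unhooks crosslinks. Ercc1 stayed between 8.26 and 8.52, the narrowest range of any member, and Ercc4 between 6.24 and 6.78. Ercc5, an excision repair nuclease, ranged from 5.79 to 6.60, with its highest value on Fancc-/- replicate 3.

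The ubiquitin cycle of FANCD2 is the step at which the pathway is switched on and reset. Ube2t, the enzyme that conjugates ubiquitin, ranged from 6.97 to 7.80. Usp1, the enzyme that removes it, ranged from 10.89 to 11.18, and its cofactor Wdr48 from 7.75 to 8.41. On these probe sets no member of this class had an unadjusted p below 0.05 in any comparison. The probe sets of Wdr48 disagreed in size. Its brightest one differed by -0.25 in double knockout against wild type marrow, and a pair of others, bright on all 12 arrays, differed by -0.97 (limma unadjusted p = 0.0014) and -0.77 (0.00495). These further probe sets were not part of the test over all genes.

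Translesion synthesis copies DNA past a lesion that stops the replicative polymerases. Rad18, the ubiquitin ligase that recruits these polymerases, had 7.19, 6.87 and 6.89 in double knockout marrow, 7.07, 7.10 and 7.28 in Fancc-/-, 7.06, 7.03 and 7.12 in Fancg-/-, and 6.93, 6.27 and 6.33 in wild type marrow. All Fancc-/- and all Fancg-/- arrays were above all wild type arrays, and wild type replicate 1 stood well above the other two wild type arrays. The differences from wild type were 0.64 ± 0.17 SE in Fancc-/- marrow (limma adjusted p = 0.0583) and 0.56 in Fancg-/- marrow (limma adjusted p = 0.391). In the double knockout it was 0.48 (limma adjusted p = 0.118), and the interaction estimate was -0.72 (limma adjusted p = 0.216). The 3 further probe sets of Rad18 gave differences of 0.28, 1.06 and 0.52 in double knockout against wild type marrow, and of 0.08, 0.10 and 0.36 in Fancc-/- against wild type marrow. On the one at 1.06 (limma unadjusted p = 0.000233) the interaction estimate was 0.90, opposite in sign to that of the brightest probe set. Without wild type replicate 1, Rad18 passed in Fancc-/- and in double knockout marrow. That array held the highest wild type value, so leaving it out widens the difference. The share of all genes called without it is not given here.

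Polh, the polymerase that copies past ultraviolet lesions, had 7.21, 6.28 and 6.72 in double knockout marrow, 7.60, 7.49 and 7.07 in Fancc-/-, 7.34, 7.41 and 7.61 in Fancg-/-, and 7.29, 7.48 and 7.29 in wild type marrow. Every double knockout array was below every Fancg-/- and wild type array, and the differences were -0.72 (limma adjusted p = 0.195) and -0.62 ± 0.21 SE (limma adjusted p = 0.105). This probe set is of a type that can bind other transcripts, and another bright probe set of Polh gave -0.02 in double knockout against wild type marrow. Polk, which copies past bulky adducts, had 5.68, 5.26 and 4.99 in double knockout marrow, 5.92, 5.91 and 6.29 in Fancc-/-, 5.52, 5.71 and 5.80 in Fancg-/-, and 6.02, 5.77 and 5.80 in wild type marrow. Every double knockout array was below every Fancc-/- and wild type array, and the differences were -0.73 (limma adjusted p = 0.0845) and -0.55 ± 0.17 SE (limma adjusted p = 0.081). Rev1, the scaffold of these polymerases, ranged from 7.36 to 8.07, and Rev3l, the catalytic subunit of polymerase zeta, from 8.53 to 8.94.

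End joining seals breaks without a template. Xrcc4, the partner of the end joining ligase, had 6.70, 5.86 and 6.04 in double knockout marrow, 6.63, 6.59 and 6.55 in Fancc-/-, 6.68, 6.71 and 6.57 in Fancg-/-, and 6.61, 6.52 and 6.56 in wild type marrow. Replicates 2 and 3 of the double knockout were below all other arrays, and the remaining 10 arrays lay within 6.52 to 6.71. Its second probe set differed by -0.91 in double knockout against wild type marrow. This dimmer probe set was above the array median on 8 of 12 arrays. It also differed by -0.60 in Fancc-/- against wild type marrow, where the brightest one gave 0.03. Xrcc5, a subunit of the Ku ring that holds broken ends, had 5.30, 4.86 and 4.90 in double knockout marrow, 5.42, 5.03 and 4.56 in Fancc-/-, 4.62, 4.61 and 4.41 in Fancg-/-, and 4.84, 4.59 and 4.39 in wild type marrow. The double knockout arrays were above all wild type arrays, but this probe set was above the array median on 6 of 12 arrays, so its signal was low. Fancg-/- against Fancc-/- gave -0.46 for Xrcc5 (limma adjusted p = 0.535). Xrcc6, the other Ku subunit, averaged 7.54 in double knockout marrow, 7.43 in Fancc-/-, 7.68 in Fancg-/- and 8.02 in wild type marrow. Prkdc, the kinase that binds Ku, averaged 6.67 in double knockout marrow, 6.48 in Fancc-/-, 6.55 in Fancg-/- and 6.83 in wild type marrow. The untested Lig4 had 3.55, 3.86 and 3.71 in double knockout marrow, 3.75, 3.75 and 3.86 in Fancc-/-, 3.57, 3.82 and 4.40 in Fancg-/-, and 5.31, 4.20 and 4.34 in wild type marrow, and wild type replicate 1 was the only array on which it passed the array median.

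Parp1, which senses nicks and breaks, had 9.14, 9.29 and 9.17 in double knockout marrow, 9.32, 8.99 and 8.66 in Fancc-/-, 9.00, 9.07 and 9.02 in Fancg-/-, and 9.57, 9.21 and 9.27 in wild type marrow. All Fancg-/- arrays were below all wild type arrays, and the difference of -0.32 did not pass (limma adjusted p = 0.761). In Fancc-/- marrow the difference from wild type was -0.36 (limma adjusted p = 0.235). Other bright probe sets of Parp1 gave -0.53 (limma unadjusted p = 0.00916) and -0.41 (0.0253) in Fancc-/- marrow. In Fancg-/- marrow they gave -0.41 and -0.30.

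**Figure D2:**
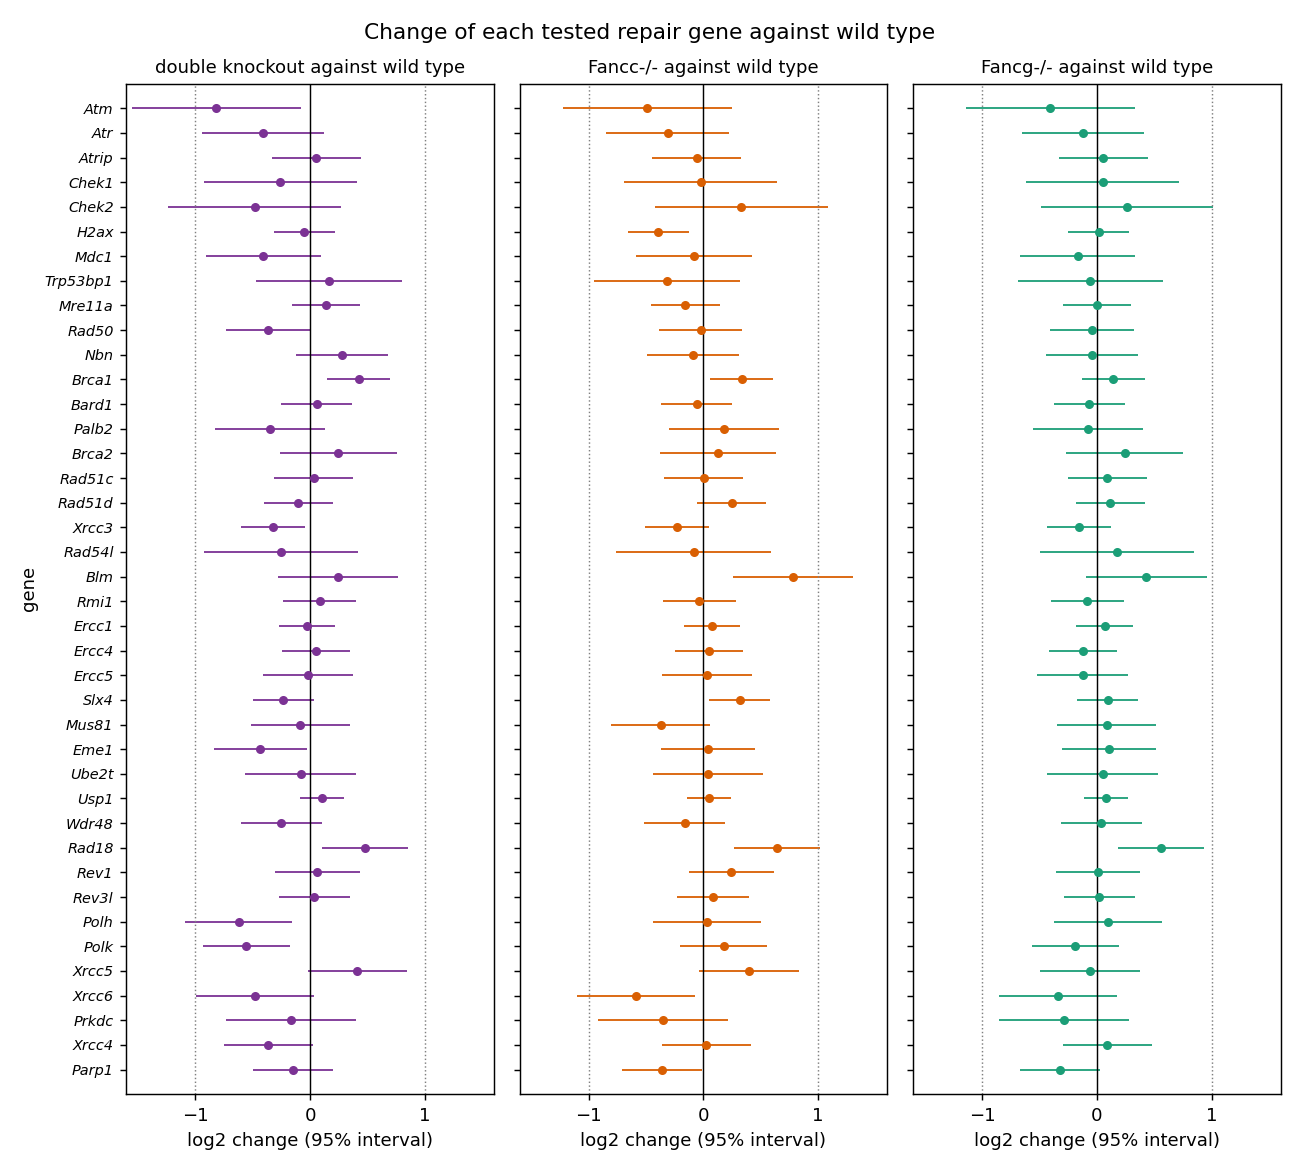
Log2 difference from wild type with its 95% interval for each tested member, in double knockout, Fancc-/- and Fancg-/- marrow (n = 3 per group). The estimates lie on both sides of 0 in each knockout and none passed an adjusted p of 0.05.

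**Figure D3:**
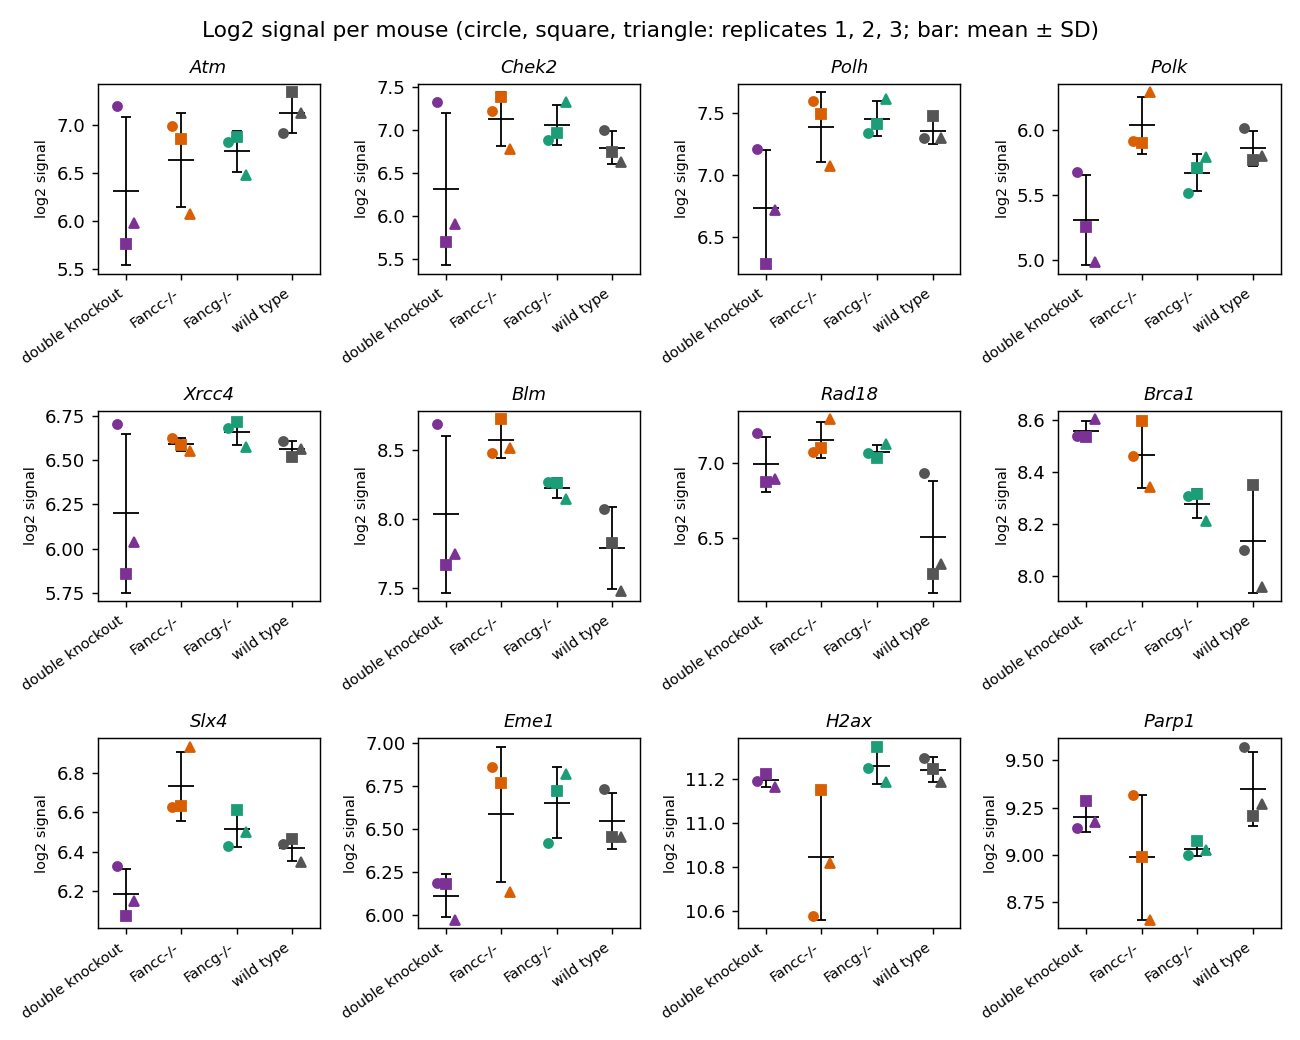
Log2 signal of selected members on each array, 1 point per mouse, by genotype, with bars for the mean and SD of 3 mice. In the double knockout the points of Atm, Chek2, Blm and Xrcc4 separate into 1 high and 2 low arrays.

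Some members had groups with no overlap between arrays, which is set here beside the share of all genes tested that did so in the same direction. In double knockout marrow, Brca1 and Xrcc5 were above wild type on all arrays (12.5% of all genes tested), and Xrcc3, Slx4, Eme1, Polh, Polk and Xrcc6 were below it (16.9%). In Fancc-/- marrow, Blm, Slx4 and Rad18 were above wild type (11.1%), and H2ax and Xrcc3 were below (13.1%). In Fancg-/- marrow, Blm and Rad18 were above (8.68%), and Atm and Parp1 were below (8.61%). In the double knockout against Fancc-/-, H2ax, Mre11a, Nbn and Usp1 were above (8.68%), and Rad51d, Slx4 and Polk were below (9.1%). In the double knockout against Fancg-/-, Nbn, Brca1, Xrcc5 and Parp1 were above (8.87%), and Rad50, Rad54l, Slx4, Eme1, Wdr48 and Polh were below (10.5%). In Fancg-/- against Fancc-/-, H2ax was above (7.16%), and Brca1, Blm, Slx4 and Polk were below (6.21%). None of these members passed the test in the comparison named.

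The spread within a group was widest in double knockout and Fancc-/- marrow. Double knockout replicate 1 was more than 0.5 log2 higher than the mean of replicates 2 and 3 for 13 of 40 members, and lower for 0 of 40. Over all genes tested, 10.8% were higher and 6.72% lower. The 13 were Chek2 by 1.53, Atm by 1.33, Blm by 0.98, Trp53bp1 by 0.96, Atr by 0.78, Xrcc4 by 0.76, Mdc1 by 0.75, Chek1 by 0.74, Brca2 by 0.72, Polh by 0.71, Prkdc by 0.60, Polk by 0.56 and Bard1 by 0.52. They include 4 of the 5 damage kinase genes and 2 of the 3 chromatin adaptors. The MRN complex, the strand invasion genes, the nucleases and the FANCD2 ubiquitin cycle had none. The erythroid marker mean was 11.27 on replicate 1, with 10.38 and 10.54 on replicates 2 and 3, and the mean of mitosis genes was 9.91, with 9.40 and 9.34. The mean of DNA replication genes was 9.95 on replicate 1, with 9.92 and 9.86 on the others. The part of these cell and division markers in the split was not tested.

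Fancc-/- replicate 3 stood apart the other way. It was more than 0.5 log2 lower than the mean of replicates 1 and 2 for 14 of 40 members and higher for 1, Ercc5, at 0.78. Over all genes tested, 13.8% were lower and 8.38% higher. The members with the largest gaps were Rad54l at -1.39, Chek1 at -1.24, Prkdc at -0.92, Palb2 at -0.85 and Atm at -0.84. On this array the mean of DNA replication genes was 9.53, with 9.95 and 9.88 on the other two, and the mean of mitosis genes was 9.49, with 9.73 and 10.00. The mean of T and NK cell markers was 6.48, with 7.10 and 7.28, and the mean of p53 target genes was 8.53, with 7.90 and 7.83. The part of these markers in the low members was not tested. Of the 13 members high on double knockout replicate 1 and the 14 low on Fancc-/- replicate 3, 7 were in both, which is 53.8% of the 13 and 50% of the 14. Over all genes tested 426 (3.58%) were in both, which is 33.2% of those high on the one and 26% of those low on the other. Members were already more often in each set alone. They were 13 of 40 high on double knockout replicate 1, beside 10.8% of all genes tested, and 14 of 40 low on Fancc-/- replicate 3, beside 13.8%. So the larger overlap percentages of the members do not show a closer link between these arrays. The remaining arrays were closer to their groups. In the double knockout, 20% of members on replicate 2 and 5% on replicate 3 departed by over 0.5 from the mean of the other two arrays, beside 6.92% and 6.59% of all genes tested. In Fancc-/- marrow the members' shares were 15% on replicate 1 and 5% on replicate 2, beside 13.6% and 11.6%. In Fancg-/- marrow they were 2.5%, 0% and 2.5% on replicates 1 to 3, beside 3.49%, 3.4% and 7.94%, and in wild type marrow 10%, 2.5% and 5%, beside 5.9%, 3.91% and 2.14%.

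**Figure D4:**
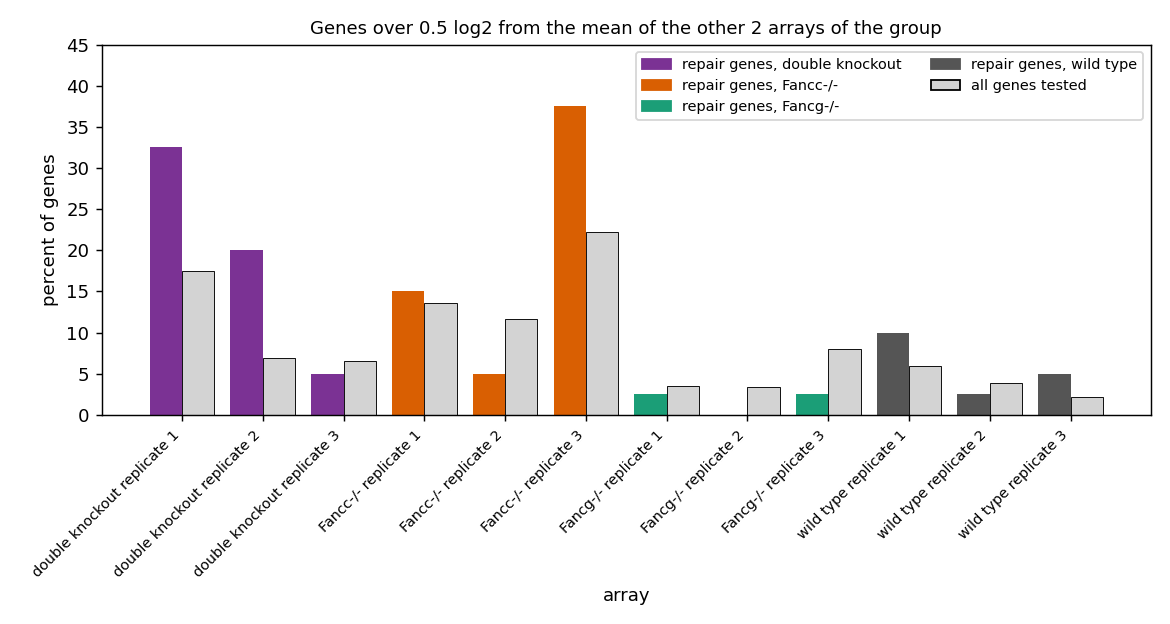
Share of members and of all tested genes more than 0.5 log2 from the mean of the other two arrays of their group, for each array. The members' share was 32.5% on double knockout replicate 1 and 37.5% on Fancc-/- replicate 3, beside 17.5% and 22.2% of all genes.

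Which members passed depended on double knockout replicate 1. Without it, 5 members fell in double knockout against wild type marrow, where 15.6% of all genes tested were called. They were Atm by -1.26 (limma adjusted p = 0.00748), Chek2 by -0.99 (0.00874), Polh by -0.86 (0.0119), Polk by -0.74 (0.0105) and Xrcc4 by -0.62 (0.00494). Against Fancc-/-, 6 members fell without this array (Chek2, Blm, Slx4, Polh, Polk and Xrcc4), beside 10.8% of all genes tested. Against Fancg-/-, 3 fell (Chek2, Polh and Xrcc4), beside 8.34%. Fancc-/- marrow then had Blm (limma adjusted p = 0.0124) and Rad18 (0.0451) higher than wild type, beside 5.98%. For the interaction 5 members were below 0 (Chek2, Blm, Slx4, Polh and Xrcc4), beside 4.99%. Without Fancc-/- replicate 3, Brca1 rose and Polk fell in double knockout against wild type marrow (11.6% of all genes tested), and Palb2 and Eme1 fell in the double knockout against Fancc-/- (2.75%). These sets without 1 array share the other arrays and were singled out after the values were seen. Without Fancg-/- replicates 1 and 3, 0 members were called in any comparison. Of all genes tested, 1.88% were then called in double knockout against wild type marrow and 2.34% in Fancc-/- against wild type marrow.

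Few genes of the neighbouring lists passed the test, and their counts are read beside the 5.28% of all genes called in double knockout and the 4.54% called in Fancc-/- against wild type marrow. The Fanconi core complex and the FANCD2 and FANCI pair have 13 genes, all tested, and Fancg in the double knockout was the only call. Of 49 other repair and checkpoint genes tested, 1 rose in Fancc-/- marrow. This was Dclre1b, a nuclease that protects telomere ends, with 7.76, 7.55 and 7.92 in Fancc-/- marrow, against 7.10, 7.03 and 7.23 in wild type marrow, a difference of 0.63 ± 0.15 SE (limma adjusted p = 0.0367). In double knockout marrow 1 fell. This was Xpc, the damage sensor of nucleotide excision repair, with 7.91, 7.82 and 7.94 in double knockout marrow, against 8.98, 8.66 and 8.55 in wild type marrow, a difference of -0.84 ± 0.18 SE (limma adjusted p = 0.0243). Of 23 DNA replication genes, Chaf1b, a subunit of the histone chaperone CAF-1, rose in double knockout marrow, with 7.91, 8.10 and 8.08 against 7.72, 7.24 and 7.35 in wild type marrow (0.59 ± 0.14 SE, limma adjusted p = 0.0364). Of 15 p53 target genes, Bbc3, which encodes the cell death protein PUMA, rose in double knockout marrow, with 8.13, 8.77 and 8.96 against 7.02, 7.83 and 7.85 in wild type marrow (1.06 ± 0.27 SE, limma adjusted p = 0.0475). None of 21 mitosis genes was called, and their median difference in double knockout against wild type marrow was -0.22.

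**Figure D5:**
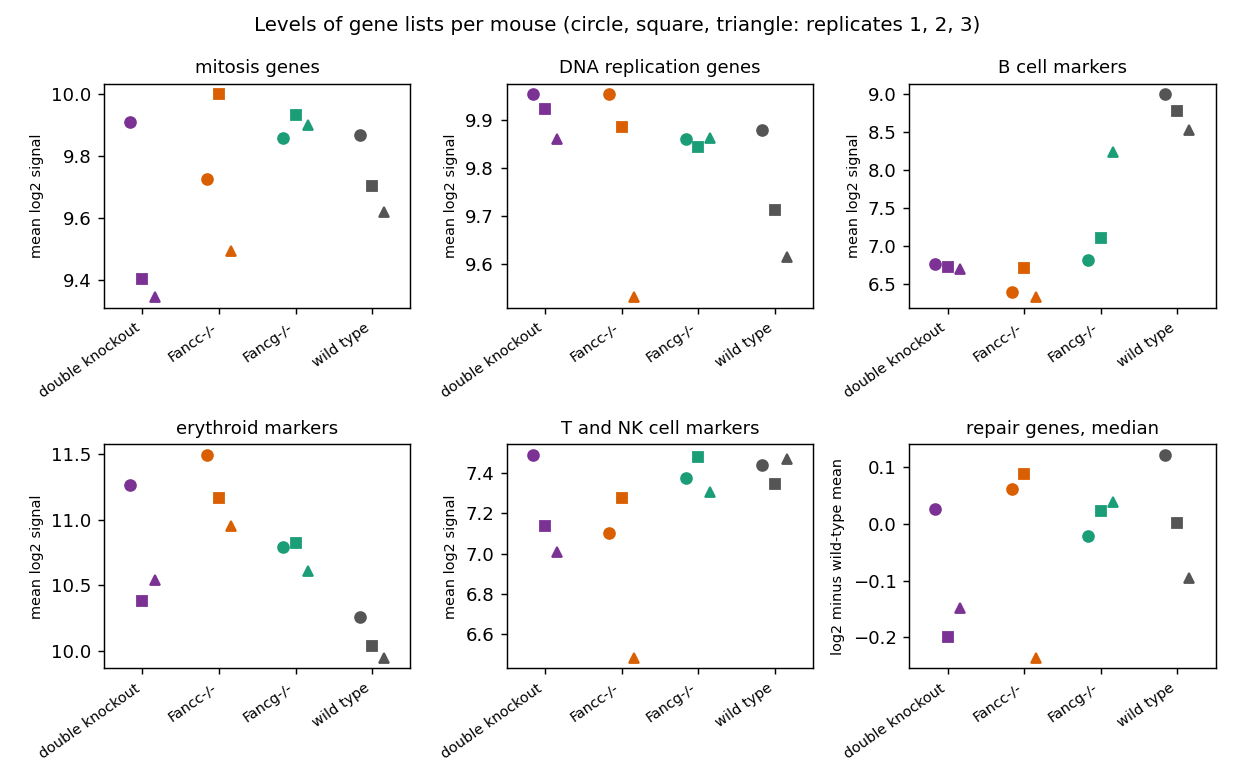
Levels of gene lists on each array, by genotype, 1 point per mouse. Mitosis, DNA replication, B cell, erythroid, and T and NK cell lists are shown as mean log2 signal. The repair genes are shown as their median difference from the wild type mean. The B cell marker mean was 6.69 to 6.76 in double knockout and 6.32 to 6.71 in Fancc-/- marrow, below its wild type range of 8.53 to 9.00.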

How the data were processed

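RNA from 12 bone marrow samples was labelled with biotin and hybridized to Affymetrix arrays from 2 µg of total RNA, except Fancg-/- replicate 3 with 0.91 µg, per the labels' protocols. The authors deposited one log2 value for each probe set and array, computed with RMA and Partek, per the submitters' processing notes, whose versions are not given in the sources used here. RMA shares information across arrays, and its summaries compress low signals. The labels say that samples were not pooled, so each of the 3 samples per group is taken as its own mouse. For Fancg-/- replicates 1 and 3, with signal of both Eif2s3y and Xist, this was not tested. Arrays give no depth, so their number limits precision.

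Of 45101 probe sets, 64 controls, 932 with several gene symbols and 9160 with none were left out. Each of 18193 genes was read on its brightest probe set, and 11906 were tested, being above the array median on at least 3 arrays. H2afx was matched to its current symbol H2ax. One linear model over all arrays was fitted with limma 3.58.1 (R 4.3.3), with 8 residual degrees of freedom, moderated variances and a trend. Tests were 2-sided, with Benjamini-Hochberg adjustment over all genes and a threshold of 0.05. The model was tested on simulated data. Values on every array are given for the 3 members with the smallest p in each comparison and for the targeted genes, and for Atm, Chek2, Xrcc4 and Lig4, chosen after their values were seen. From each further list, up to 4 genes past the threshold with the smallest p are named. The members and lists were chosen with earlier results of these data known. Replicate numbers were checked as pairs: same-numbered arrays correlated between -0.37 and 0.20, and they were not treated as pairs. Such correlations cannot show whether these arrays share more than a number. Alternatives covered the filter, probe sets, normalization, array weights, Xist as a covariate, a replicate block and arrays left out.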

Additional observations from a re-analysis of the deposited data

Results flagged for a closer look

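For 5 members every knockout array moved one way in one background and the opposite way in the other, so that the interaction estimate (how far the double knockout departs from the 2 single knockout differences added together) is given here. It was 0.30 for Mre11a (limma adjusted p = 0.507), -0.64 for Slx4 (0.145), 0.53 for Parp1 (0.304), -0.47 for Rad51d (0.299) and 0.45 for Xrcc6 (0.553). None of these tests of the difference passed. Each array was measured from the mean of the group it was compared with. For loss of Fancc, 3 of 40 members differed in opposite directions with and without Fancg, beside 8.95% of all genes tested. For loss of Fancg, 4 of 40 did so with and without Fancc, beside 14.6%. Neither share of the members was above that of all genes. Sex cannot be told apart from genotype in the interaction.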

How the results depend on the processing

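No member was called in the analysis as reported, so alternatives could only add calls. Array weights called 11 members in double knockout against wild type marrow (28.4% of all genes tested), 9 in the double knockout against Fancc-/- (14.5%), 8 against Fancg-/- (18.9%), 2 in Fancc-/- against wild type (6.34%), 1 in Fancg-/- against wild type (2.33%) and 6 for the interaction (8.69%). Leaving out each array in turn gave 0 to 5 calls in double knockout against wild type, 0 to 6 against Fancc-/-, 0 to 3 against Fancg-/-, 0 to 2 in Fancc-/- against wild type and 0 to 5 for the interaction. The upper ends came without double knockout replicate 1. Leaving out both that array and Fancc-/- replicate 3, a choice made after seeing the data, gave 12 calls in double knockout against wild type (23.7%), 13 against Fancc-/- (19.4%), 10 against Fancg-/- (15.1%), 2 in Fancc-/- against wild type (7.38%) and 9 for the interaction (12.2%). The mean of all probe sets called 2 members in double knockout against wild type (Brca1 and Rad18), and a second quantile normalization called 1 in Fancc-/- against wild type (Rad18). The share of all genes called in each of these settings is not given here, so these counts cannot be set beside it. Why these settings add calls was not tested.

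Of the estimates for named members, 2 changed sign: Polh in the double knockout against Fancg-/- was 0.10 on probe sets unique to 1 gene, and the Rad18 interaction was 0.022 on the mean of all probe sets. With the replicate number as a block, 0 members were called in any comparison, and the share of all genes called is not given here. Of the 18 same-numbered pairs 6 correlated over 0.1, and 3 of 12 arrays lay closest to one of their own number. Counts over all genes moved widely, from 0 (with Xist as a covariate) to 3382 (with array weights) in double knockout against wild type, and from 175 to 879 in Fancc-/- against wild type. Of 21 members with several bright probe sets, 5 had one of opposite sign in double knockout against wild type marrow. Dim members such as Lig4 and Xrcc5 are limited by signal.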

Other observations

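The p53 target genes with the smallest p in the double knockout against Fancc-/- had opposite directions and did not pass the test. Polk differed by -0.73 (limma adjusted p = 0.0845). Mdm2, which encodes the ubiquitin ligase that degrades p53, had 9.78, 10.31 and 10.40 in double knockout marrow, against 9.07, 9.25 and 9.71 in Fancc-/- marrow, a difference of 0.82 (limma adjusted p = 0.0845). The double knockout arrays were all above the Fancc-/- arrays. Among mitosis genes, Ttk, a kinase of the spindle checkpoint, had 7.95, 6.78 and 7.22 in double knockout marrow, against 8.33, 8.17 and 8.01 in wild type marrow (-0.85, limma adjusted p = 0.0818). Double knockout replicate 1 was again the highest of its group. All 21 mitosis genes tested were lower in the double knockout than in Fancg-/- marrow, with a median of -0.33 and 0 called, where 6717 of 11906 genes tested were lower and 0% were called.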
